A study of Mus musculus with 64 samples.

Results

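The comparison described here sets ACY957 against its own vehicle in the ventral tegmental area (VTA) of mice whose genotype label is Wildtype. The members are the 13 libraries that the labels place in these groups, 8 from mice given ACY957 and 5 from mice given the ACY957 vehicle, of 64 libraries in the series. Each library came from 1 adult male mouse of strain 129S1/Svlm. Treatment lasted 14 days, and brains were collected at zeitgeber time 6, roughly 24 h past the final dose, as bilateral punches of 1 mm over the VTA. The dose and route are not given in the sources used here. Mice labelled Clock delta 19 mutant (8 with ACY957, 11 with its vehicle) and wildtype-labelled mice given valproate (8 with VPA, 3 with its vehicle) serve as points of reference. Clock delta 19 is a dominant-negative allele of the circadian transcription factor CLOCK, and the labels name no altered allele or transgene for the wildtype-labelled mice.

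ACY957 is an inhibitor of histone deacetylases with selectivity for the class I enzymes HDAC1 and HDAC2. These enzymes remove acetyl groups from histone tails as the catalytic part of corepressor complexes, so their inhibition is generally associated with more acetylated chromatin and with increased transcription of some genes. The VTA holds the dopamine neurons of the mesolimbic reward pathway, next to GABA and glutamate neurons and to glia. Neuromedin U, which carries the main result below, is a neuropeptide known from the pituitary, hypothalamus and gut for effects on feeding, stress responses and smooth muscle. It acts on 2 G-protein-coupled receptors, of which NMUR2 is the form found mainly in the brain.

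The 13 libraries held 22.7 to 29.8 M counted reads, and their log2 expression values correlated pairwise at 0.978 to 0.9924. No pair was identical. Levels are given as CPM, read counts scaled to a common library size after TMM normalization, and differences as log2 fold changes of ACY957 over vehicle with a standard error (SE). The lowest mean correlations with the other libraries were 0.9832 for ACY957 replicate 6 and 0.9838 for vehicle replicate 2, and both recur in the results. The clock output score averages the log2 CPM of 8 rhythmic genes, and was 5.17 to 5.45 in the vehicles and 5.14 to 5.39 in 7 ACY957 libraries. It was 4.28 in ACY957 replicate 8, while mutant-labelled ACY957 libraries ranged from 4.02 to 4.97 with a median of 4.15. Mutant-labelled vehicles of ACY957 ranged from 3.995 to 5.37 (median 4.19), so their highest score lay within the range of the wildtype-labelled vehicles. In clock output wildtype-labelled ACY957 replicate 8 thus went against its label. The values of Nmu, Nmur2, Pigs and the clock genes are given with and without it. Comparisons with mutant-labelled mice use the labels as given. The wildtype-labelled vehicles are mouse 10 and mice 13 to 16, and the treated animals are mice 17 to 24. The treatment therefore cannot be told apart from the run of mouse numbers, and the labels name no batch.

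Expression of the deacetylases themselves and of Clock was close between the groups. Hdac1 was at 17.02 ± 0.312 CPM (SD, n = 5) with vehicle and 18.1 ± 1.01 CPM (SD, n = 8) with ACY957, a log2 difference of 0.09 (SE 0.05). Hdac2 was at 90.5 ± 6.37 and 90.3 ± 4.84 CPM, and Hdac3, the catalytic subunit of the NCoR and SMRT complexes, at 98.5 ± 4.11 and 97.2 ± 7.65 CPM. Clock was at 68.6 ± 3.89 and 67.8 ± 7.87 CPM. The drug acts on enzyme activity, so these transcript levels do not check the treatment. Clock counts do not check the genotype label either, because the mutation removes an exon and not the transcript.

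Neuromedin U was the only gene that passed the test. Nmu (chromosome 5, 76333495 to 76363788, minus strand, mm10) rose by a log2 fold change of 3.42 (SE 0.56), with an adjusted p of 0.00142 in edgeR's quasi-likelihood test over the 15634 genes tested. This was 0.0064% of the genes in the upward direction and 0% in the downward direction. Without a correction for multiple testing, 519 genes (3.32%) lay under 0.05, 256 of them higher with ACY957 and 263 lower.

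In the 5 vehicle libraries Nmu was at 0.572, 0.485, 0.607, 0.561 and 0.461 CPM, that is 11 to 17 reads each. In the 8 ACY957 libraries it was at 7.25, 16.1, 1.95, 4.74, 6.27, 5.88, 3.10 and 0.786 CPM, or 19 to 478 reads. All treated libraries lay above all vehicles, while spanning a wide range among themselves. Relative to the vehicle mean, the treated libraries were 1.46-fold to 30-fold higher, the lowest being replicate 8 and the highest replicate 2. Without replicate 8 the Nmu log2 fold change was 3.58 (adjusted p = 0.000167), and without replicate 2 it was 2.99 (adjusted p = 0.0101).

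The call for Nmu was lost in some of the other fits, and the cause was not tested. A fit of the 13 libraries alone gave the same log2 fold change, 3.42, but an adjusted p of 0.479. That fit also tested fewer genes, 14793. With limma voom over all libraries, Nmu was at 2.98 with an adjusted p of 0.91. DESeq2 gave 3.43 with an adjusted p of 1.26e-06.

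Neuromedin U transcripts had the same pattern in the mutant-labelled mice, which share no library with this comparison. There, ACY957 libraries ranged from 1.92 to 12.2 CPM with a median of 8.30, and vehicles from 0.390 to 6.01 CPM with a median of 0.597. The groups overlapped through a single vehicle library at 6.01 CPM, the next being at 1.37 CPM. The log2 fold change of Nmu was 2.88 (SE 0.38, adjusted p = 4.82e-06 in edgeR), and Nmu was the only gene of 15634 to pass in that comparison as well (0.0064% in the upward direction). Without the 16 mutant-labelled vehicle libraries from mouse 48 on, 4 vehicles of ACY957 remained, among them the library at 6.01 CPM, and Nmu was at 1.97 with an adjusted p of 1. The difference between the labels in the Nmu effect was -0.54 (SE 0.66), with an unadjusted p of 0.421 in edgeR.

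Valproate, which inhibits deacetylases less selectively, was given to other wildtype-labelled mice. Nmu was at 0.614 ± 0.19 CPM (SD, n = 8) with VPA and 0.539 ± 0.139 CPM (SD, n = 3) with its vehicle. The log2 fold change was 0.17 (SE 0.72), and VPA libraries reached at most 0.858 CPM. Set against each other, the ACY957 effect exceeded the VPA effect on Nmu by 3.24 (SE 0.93), with an unadjusted p of 0.000883 in edgeR that did not pass adjustment (adjusted p = 1).

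Nmur2 (chromosome 11, 56024987 to 56041010, minus strand), the brain receptor of neuromedin U, was measured at few reads and did not pass the test. It was at 0.396, 0.0746, 0.0357, 0.224 and 0.335 CPM with vehicle, or 1 to 9 reads. With ACY957 it was at 1.06, 0.775, 0.611, 0.535, 0.911, 0.715, 0.218 and 0.331 CPM, or 5 to 29 reads. Replicates 7 and 8 lay within the vehicle range and the other 6 above it. The log2 fold change of Nmur2 was 1.63 (SE 0.51), with an unadjusted p of 0.00226 and an adjusted p of 0.999 in edgeR. Without replicate 8 it was 1.72 (adjusted p = 0.93). In mutant-labelled mice it was 1.79 (SE 0.38, adjusted p = 0.099), and with VPA in wildtype-labelled mice it was -0.32 (SE 0.63). In mutant-labelled mice given VPA, Nmur2 was at 0.701 ± 0.541 CPM (SD, n = 8; median 0.568, highest 1.79) against 0.234 ± 0.148 CPM (SD, n = 13; median 0.195) with the VPA vehicle, a difference not tested here. Nmu was at 0.773 ± 0.48 and 0.782 ± 0.29 CPM in those libraries. Ligand and receptor thus had values in the same direction in both labels with ACY957, with only the ligand past the threshold.

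**Figure D1:**
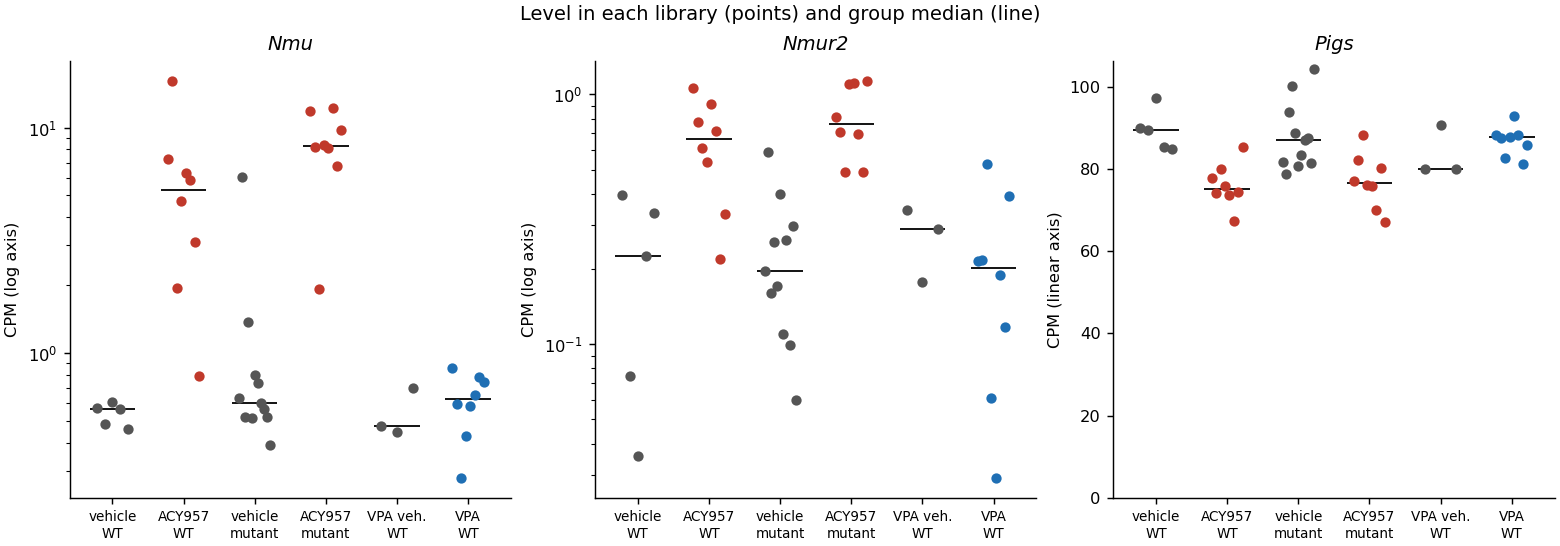
Level in CPM of Nmu and Nmur2 (log axes) and Pigs (linear axis) in each library of 6 groups, where WT is the Wildtype label, mutant the Clock delta 19 label, and VPA veh. the valproate vehicle. Points are libraries and lines are group medians. For Nmu the 8 wildtype-labelled ACY957 libraries lie between 0.786 and 16.1 CPM, all above the 5 vehicles, while VPA libraries stay at or under 0.858 CPM.

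Across the 8 ACY957 libraries, the spread of Nmu was set against 4 other measures chosen after the values were seen. Pearson's r between Nmu and Nmur2 (log2 CPM) was 0.644 (exact permutation p = 0.104, adjusted p = 0.138), and Spearman's rho was 0.81 (exact permutation p = 0.0218, adjusted p = 0.0436). Without the 2 libraries farthest from the Nmur2 median, replicates 7 and 8, r was 0.482. With the clock output score r was 0.794 (exact permutation p = 0.0225, adjusted p = 0.0899) and rho was 0.905 (exact permutation p = 0.0046, adjusted p = 0.0183), but r was 0.45 without replicates 7 and 8, so the linear relation rests on those libraries. For Th, the dopamine synthesis enzyme, r was -0.207 (exact permutation p = 0.625, adjusted p = 0.625), rho -0.286 (exact permutation p = 0.501, adjusted p = 0.501), and r without replicates 1 and 6 was 0.019. For Pigs r was -0.677 (exact permutation p = 0.0664, adjusted p = 0.133), rho -0.595 (exact permutation p = 0.132, adjusted p = 0.176), and r without replicates 6 and 8 was -0.563.

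The sequence just upstream of Nmu, Nmur2 and Pigs is shown. These 3 genes had low p-values in both genotype labels, as had others named below, and were picked after the values were seen. Each line is read 5′ to 3′ on the gene's own strand from 200 to 31 bases before the RefSeq start (GRCm38.p6), in lower case with matches to 3 short motifs in capitals. The Nmu window is chr5:76363808-76363977 (minus strand), the Nmur2 window chr11:56041018-56041187 (minus strand) and the Pigs window chr11:78328222-78328391 (plus strand).
Nmu: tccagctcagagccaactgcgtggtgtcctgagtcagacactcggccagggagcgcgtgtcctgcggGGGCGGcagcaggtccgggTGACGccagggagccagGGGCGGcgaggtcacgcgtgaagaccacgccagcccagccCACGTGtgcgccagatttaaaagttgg
Nmur2: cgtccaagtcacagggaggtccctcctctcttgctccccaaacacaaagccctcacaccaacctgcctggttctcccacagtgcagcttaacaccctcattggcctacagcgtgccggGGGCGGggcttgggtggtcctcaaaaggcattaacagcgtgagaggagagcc
Pigs: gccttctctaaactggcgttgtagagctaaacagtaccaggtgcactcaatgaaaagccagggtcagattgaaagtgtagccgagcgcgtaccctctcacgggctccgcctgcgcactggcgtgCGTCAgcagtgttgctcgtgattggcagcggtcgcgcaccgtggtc
The motifs were the E-box CACGTG, to which CLOCK and BMAL1 are known to bind, the GC box GGGCGG, known for SP-family factors, and TGACG, the half-site of the cyclic AMP response element, each on both strands and with no overlap between matches. The Nmu window holds GGGCGG at 133 and 97 bases before the start, TGACG at 114 and CACGTG at 57. The Nmur2 window holds GGGCGG at 82 bases, and the Pigs window CGTCA, the reverse complement of TGACG, at 76 bases. Of 32851 RefSeq promoters, 4.24% hold CACGTG in the same window, 26.4% GGGCGG and 12.6% TGACG. These matches describe the letters only, since no binding or acetylation was measured.

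Among the genes with lower levels, Pigs had the smallest p. Pigs (chromosome 11, 78328415 to 78342782, plus strand) encodes a subunit of the transamidase that attaches proteins to their glycolipid membrane anchor. It was at 89.99, 89.4, 97.4, 85.3 and 85.0 CPM with vehicle. With ACY957 Pigs was at 77.9, 74.1, 80.1, 75.9, 73.6, 67.3, 74.5 and 85.4 CPM. Replicate 8, again nearest the vehicles, was the only treated library within their range. The log2 fold change was -0.23 (SE 0.05, adjusted p = 0.619 in edgeR), so Pigs did not pass, and without replicate 8 it was -0.26 (adjusted p = 0.141). It was -0.19 (SE 0.05, adjusted p = 0.194) in mutant-labelled mice and 0.05 (SE 0.07) with VPA.

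The next genes on the higher side by p-value were of low to moderate abundance, and none passed (adjusted p = 0.999 for each in edgeR). Arhgef16, a guanine nucleotide exchange factor gene, was at 1.63, 1.604, 1.32, 2.10 and 0.922 CPM with vehicle and at 2.01 to 3.59 CPM with ACY957, with 7 of 8 treated libraries above all vehicles. Cdkn2b, the cell cycle inhibitor p15, was at 0.50 to 0.754 CPM with vehicle and 0.743 to 1.67 CPM with ACY957, again with 7 of 8 above all vehicles. The log2 fold changes were 0.80 (SE 0.23) for Arhgef16 and 0.73 (SE 0.22) for Cdkn2b. In mutant-labelled mice they were -0.06 (SE 0.18) and 0.14 (SE 0.17). How many of all genes tested reach 7 of 8 was not counted. Ccnl1, a cyclin of pre-mRNA splicing, separated the groups completely, at 8.05 to 9.62 CPM with vehicle and 9.81 to 12.01 CPM with ACY957. Its log2 fold change was 0.30 (SE 0.10), and 0.18 (SE 0.08) in mutant-labelled mice. All 8 ACY957 libraries lay above all 5 vehicles for 10 genes (0.064%) and below them for 15 (0.0959%). The 13 libraries can be split into 8 and 5 in 1287 ways, so shares of this order also arise without any effect. Complete separation alone therefore does not single out a gene, here or below.

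Smaller or less even differences made up the rest of the 12 that are reported. Myl6b, a myosin light chain, was at 0.20 (SE 0.06), Zkscan5, a zinc finger gene, at 0.17 (SE 0.05), and Dcaf8, a substrate receptor of a CUL4 ubiquitin ligase, at 0.27 (SE 0.09). Tstd1, of the rhodanese family, was at 1.26 (SE 0.38) and the hair keratin gene Krt28 at 1.27 (SE 0.40), the latter with every library under 0.54 CPM. Maff, a small MAF transcription factor, was at 0.99 (SE 0.31), with ACY957 replicate 6 at 5.80 CPM and the others at 1.18 to 2.26 CPM. In mutant-labelled mice Tstd1 was at -0.06 (SE 0.29) and Krt28 at -0.16 (SE 0.27). Myl6b was at 0.06 (SE 0.05) there, Zkscan5 at 0.10 (SE 0.04), Dcaf8 at 0.11 (SE 0.07) and Maff at 0.86 (SE 0.24). All 12 kept an unadjusted p under 0.05 when any of the 13 libraries was left out. They were picked by smallest p in these same libraries, so this lends them no independent support.

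The 12 genes of smallest p on the lower side had a different shape, since most rested on a single vehicle animal. Over all genes at an unadjusted p under 0.05 in edgeR, both sides had a leading library. Vehicle replicate 2 was the highest vehicle for 109 of 263 lower genes. ACY957 replicate 6 was the highest treated library for 95 of 256 higher genes. How often these 2 libraries were highest over all genes tested was not counted. These counts, and those for the larger changes below, therefore have no share to be set against. Vip, the neuropeptide vasoactive intestinal peptide, was at 35.2 CPM in vehicle replicate 2, at 4.39 to 8.01 CPM in the other 4 vehicles and at 2.75 to 9.70 CPM with ACY957. Mef2c, a neuronal transcription factor, was at 150.9 CPM in vehicle replicate 2, at 17.7 to 21.1 CPM in the other vehicles and at 16.4 to 24.4 CPM with ACY957. The same library stood highest for Nov, a secreted matrix protein, at 73.2 CPM, against 2.73 to 6.74 CPM in the other vehicles. It also stood highest among vehicles for Kcnv1, a silent potassium channel subunit (41.7 CPM), Dtl, a replication-coupled ubiquitin ligase adaptor (4.36 CPM), the keratin genes Krt12 (5.11 CPM) and Krt2 (2.83 CPM), the dynein light chain gene Dynlt1b (2.69 CPM) and the serotonin transporter Slc6a4 (7.68 CPM).

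A few further neuronal genes, picked after their values were seen, were high in vehicle replicate 2. Slc17a7, the vesicular glutamate transporter of cortex, was at 242 CPM there and at 2.66 to 20.02 CPM in the other vehicles. Tph2, which makes serotonin, was at 13.2 CPM against 1.14 to 1.64 CPM, and Gabrd, a GABA-A receptor subunit, at 14.7 CPM against 0.786 to 1.64 CPM. The summed levels of the glutamate neuron genes and serotonin neuron markers were highest among vehicles in replicate 1, at 2068 and 108 CPM. That of the GABA neuron genes was highest in replicate 2, at 4731 CPM against a vehicle median of 4636 CPM. Such sums weigh abundant members most, so they do not show whether the scarcer markers followed. Whether the cell makeup of the punch of vehicle replicate 2 contributed was not tested. Of 37 genes lower by at least 1 log2 unit at an unadjusted p under 0.05, 28 were highest among vehicles in replicate 2, and for 19 its value was over 3 times that of the next vehicle. Without this library, 3 of the 12 lower genes kept an unadjusted p under 0.05, and 384 genes in all lay under that limit. Fold changes then changed sign for Mef2c (from -1.23 to 0.03), Nov (from -1.95 to 0.07), Dtl (from -2.41 to 0.08), Krt12 (from -2.81 to 0.20) and Slc6a4 (from -3.86 to 1.03).

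Besides Pigs, Mcph1 and Skor1 were the lower genes not led by that library. Mcph1, a chromosome condensation gene, was at 15.2, 13.2, 13.1, 13.2 and 16.7 CPM with vehicle. It was at 10.3, 11.6, 11.8, 11.9, 10.1, 11.6, 13.1 and 12.3 CPM with ACY957, with all treated libraries below all vehicles. Its log2 fold change was -0.30 (SE 0.09, adjusted p = 0.999 in edgeR). Skor1, a SKI-family corepressor gene, had no library above 0.337 CPM.

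**Figure D2:**
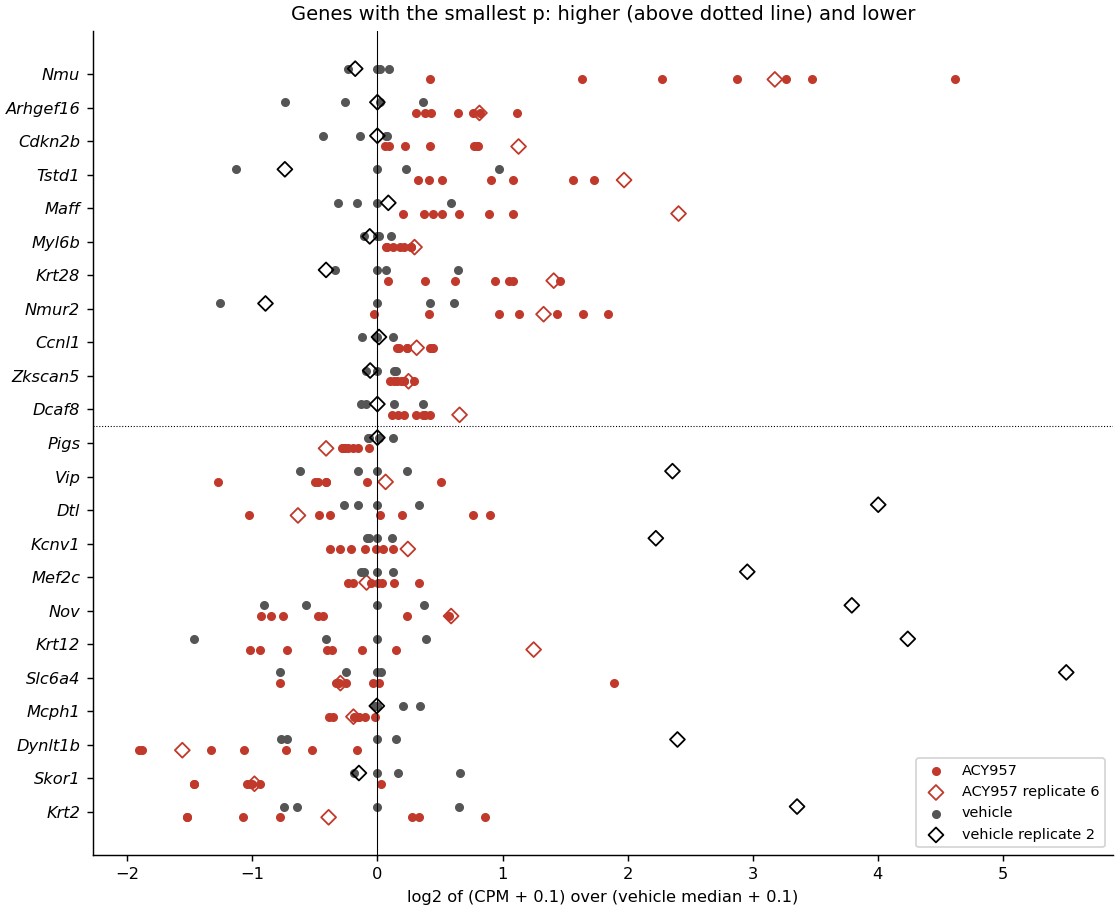
Level of the reported higher (above the dotted line) and the 12 lower genes with the smallest p in each of the 13 libraries, as the log2 of (CPM + 0.1) over (vehicle median + 0.1). Grey points are vehicles, red points ACY957, and open diamonds mark vehicle replicate 2 (black) and ACY957 replicate 6 (red). For most of the higher genes, most red points lie to the right of all vehicles, but only 4 of 8 do for Tstd1 and Maff and 3 of 8 for Dcaf8. For 9 of the 12 lower genes the black diamond lies alone on the right.

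The ACY957 effect was then compared between the genotype labels, which share no library. No gene differed between the labels after adjustment in edgeR (0 of 15634), with 287 (1.84%) at an unadjusted p under 0.05. DESeq2 and voom also gave 0, with 288 and 204 genes under that limit. The smallest p-values belonged to Dynlt1b (4.25, SE 0.90, adjusted p = 0.223), the thyrotropin-releasing hormone gene Trh (4.69, SE 1.07, adjusted p = 0.265) and Nov (3.12, SE 0.73, adjusted p = 0.265), each as mutant minus wildtype label. In all 3 the highest wildtype-labelled vehicle was replicate 2, at 14.1 CPM for Trh against 0.461 to 1.16 CPM in the other vehicles. The mutant-labelled ACY957 libraries also had high maxima, 77.5 CPM for Trh (median 0.975), 67.9 CPM for Nov (median 5.43) and 3.53 CPM for Dynlt1b (median 0.165).

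Of the 519 genes at an unadjusted p under 0.05 in wildtype-labelled mice, 382 (73.6%) had the same sign in mutant-labelled mice, against 60.2% of all genes tested. Both the same sign and an unadjusted p under 0.05 were seen for 104 of them (20%), against 5.16% of all genes. In mutant-labelled mice, 987 genes (6.31%) lay under that limit. The opposite sign with such a p in mutant-labelled mice was seen for 7 of the 519, against 181 of all 15634 genes tested. At an unadjusted p under 0.01 in both labels with the same sign there were 13 of the 15634 genes tested, 1 of them with a predicted-gene symbol. These 13 were counted after the values were seen.

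The 12 named genes of that set include the neuromedin pair, Maff and Pigs. Apoc1, an apolipoprotein of lipid transport, was at 0.84 (SE 0.29) in wildtype-labelled and 0.76 (SE 0.22) in mutant-labelled mice. Cybrd1, an iron reductase, was at 0.50 (SE 0.19) and 0.46 (SE 0.15), Rom1, a membrane protein known from photoreceptor discs, at 0.33 (SE 0.12) and 0.32 (SE 0.10), and Anks3 at 0.29 (SE 0.11) and 0.29 (SE 0.09). Pdrg1 was at 0.20 (SE 0.07) and 0.18 (SE 0.05). Lower in both were Daglb, an enzyme of endocannabinoid synthesis, at -0.17 (SE 0.05) and -0.15 (SE 0.04), Ergic1, a protein of early secretory membranes, at -0.14 (SE 0.04) and -0.10 (SE 0.04), and Epn2, an endocytic adaptor, at -0.11 (SE 0.04) and -0.12 (SE 0.03). Apart from Nmu, none of these passed adjustment in either label.

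**Figure D3:**
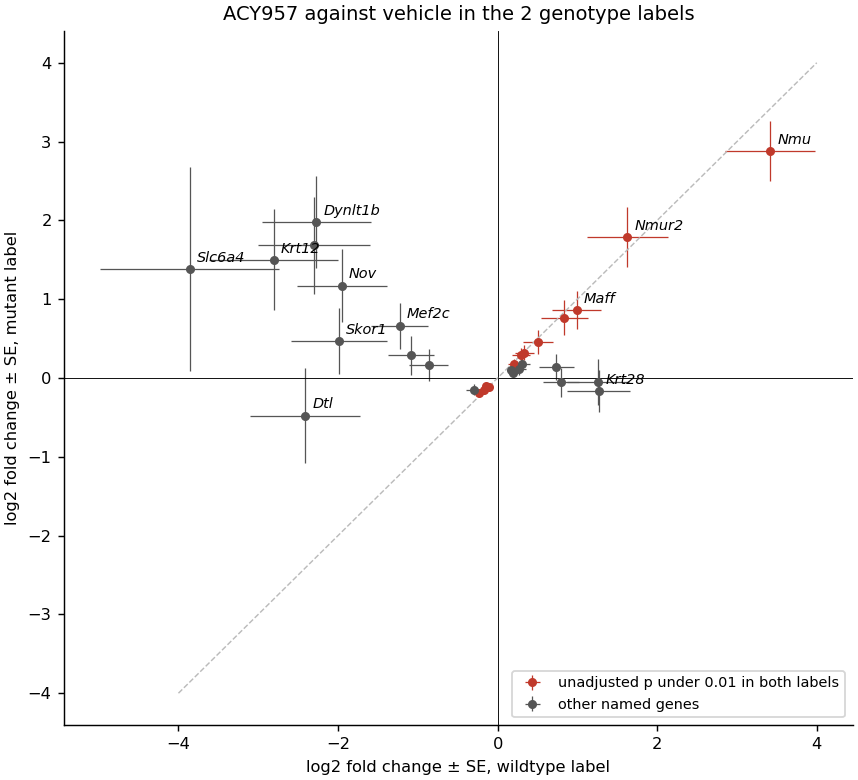
Log2 fold change of ACY957 over vehicle in wildtype-labelled (horizontal) and mutant-labelled mice (vertical), with bars of 1 SE, for the genes of smallest p named above and the genes at an unadjusted p under 0.01 in both labels (red). The dashed line marks equal effects. Nmu (3.42 and 2.88) and Nmur2 (1.63 and 1.79) lie near it at the upper right. Most lower genes led by vehicle replicate 2, such as Nov (-1.95 and 1.17), lie at the upper left. Dtl (-2.41 and -0.48), also led by that library, lies at the lower left. Skor1 (-1.99 and 0.47), not led by it, lies at the upper left too.

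Against valproate, no gene differed in its response after adjustment in edgeR (0 of 15634), with 418 (2.67%) at an unadjusted p under 0.05. DESeq2 and voom gave 0 too, with 418 and 398 genes under that limit. The smallest p-values belonged to Acat3, a cytosolic acetyl-CoA acetyltransferase (0.90, SE 0.23), Rlbp1, a retinaldehyde-binding protein (0.70, SE 0.18), and Brf2, a factor of RNA polymerase III (-0.42, SE 0.11), as ACY957 effect minus VPA effect with an adjusted p of 1 each. Acat3 was at 9.17 ± 1.28 CPM (SD, n = 8) with ACY957 and 8.06 ± 1.42 CPM (SD, n = 5) with its vehicle. Rlbp1 was at 11.4 ± 1.54 and 11.5 ± 1.58 CPM, and Brf2 at 11.9 ± 1.44 and 13.8 ± 1.40 CPM. For Acat3 and Rlbp1 the larger effect was that of VPA. Acat3 was at -0.72 (SE 0.17, adjusted p = 0.218 in edgeR) with VPA and 0.19 (SE 0.15) with ACY957, and Rlbp1 fell with VPA (-0.70, SE 0.14, adjusted p = 0.0224) and was at -0.00 (SE 0.12) with ACY957. Brf2 was at 0.20 (SE 0.08) with VPA and -0.21 (SE 0.07) with ACY957.

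Gene groups were described by their members' log2 fold changes beside all genes tested, of which 7697 were higher and 7937 lower with a median of -0.00. No member of any of the 39 lists passed the test in edgeR. Members of the class I complexes were evenly divided, with 16 of 32 corepressor subunits on each side and a median of 0.01. Of 7 class II and IV deacetylases, 4 were higher and 3 lower, and Hdac6, the cytoplasmic tubulin deacetylase, had the smallest p at -0.14 (SE 0.07). Acetyltransferases and acetyl readers had 12 of 16 members higher with a median of 0.06, led by Kat2b at 0.20 (SE 0.11), but 7 of 16 in mutant-labelled mice (median -0.01).

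Genes that deacetylase inhibitors commonly induce in other cells were divided, with 16 of 27 higher and 11 lower and a median of 0.05. The 4 at an unadjusted p under 0.05 were all higher (1.64% of all genes tested were both). They were Cdkn2b, the linker histone gene H1f0 at 0.24 (SE 0.10), the stress gene Gadd45g at 0.32 (SE 0.14) and the cell cycle inhibitor Cdkn1a at 0.94 (SE 0.47). Cdkn1a was at 6.95 to 12.1 CPM with vehicle and at 7.84, 18.8, 8.37, 8.80, 9.88, 54.4, 8.61 and 16.1 CPM with ACY957, so that replicate 6 stood far above the rest. H1f0 was at 102 to 118 CPM with vehicle and 99.6 to 178 CPM with ACY957, the highest again replicate 6. Clustered and variant histone genes had 12 of 20 tested members higher, with a median of 0.07 and Hist2h2be at 0.31 (SE 0.15). Bdnf, the neurotrophin, was at 0.21 (SE 0.18) and changed sign without vehicle replicate 2 and ACY957 replicate 6.

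Dopamine neuron markers checked the punches and varied widely between them. Th was at 790, 1117, 1349, 1002 and 1030 CPM with vehicle. With ACY957 it was at 505, 1129, 1158, 1418, 517, 385, 1120 and 857 CPM. Replicates 1, 5 and 6 were low, and the others lay within or above the vehicle range. Slc6a3, the dopamine transporter, had the same 3 libraries lowest, at 973 to 1439 CPM against 2091 to 3363 CPM with vehicle. All 22 markers had negative log2 fold changes, from -0.33 to -0.01 with a median of -0.25 that turned to 0.12 with 2 surrogate variables in the model, and none had an unadjusted p under 0.05. The floor-plate factor genes Lmx1a at -0.18 (SE 0.19) and Lmx1b at -0.27 (SE 0.29) and the synuclein gene Sncg at -0.24 (SE 0.27) had the smallest p-values. In mutant-labelled mice 16 of the 22 were positive. In bulk tissue, fewer cells of a type and less RNA per cell cannot be told apart.

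Other neuronal groups were close to the median of all genes. GABA neuron genes had 12 of 19 members higher (median 0.02) and glutamate neuron genes 12 of 20 (median 0.02). Gabre, a GABA-A receptor subunit, was at 1.05 to 1.68 CPM with vehicle and 1.62 to 2.58 CPM with ACY957, a log2 fold change of 0.70 (SE 0.24). Grm8, a presynaptic glutamate receptor, was at 0.37 (SE 0.16), and Slc17a6, the glutamate transporter of midbrain, at 0.21 (SE 0.17). Potassium channels had 15 of 25 members higher (median 0.06), led by Kcnn2 at 0.26 (SE 0.13). Synaptic vesicle genes (9 of 20 higher, median -0.03) and sodium and calcium channels (9 of 17, median 0.03) were evenly divided. Neurotrophin signalling had 10 of 15 members lower, with the receptor gene Ngfr below all vehicles in 8 of 8 libraries at -0.43 (SE 0.20) and at -0.43 (SE 0.17) in mutant-labelled mice. The list as a whole had 9 of 15 members higher there (median 0.03).

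Immediate early genes, transcribed after neuronal activity, had 13 of 23 tested members lower. Egr3 at -1.08 (SE 0.51) and Egr4 at -1.10 (SE 0.50) were highest in vehicle replicate 2, at 17.8 and 3.02 CPM, and were at 0.12 and 0.07 without it. Dusp1, a phosphatase gene of the same class, was at 0.44 (SE 0.15), with ACY957 replicates 6 and 2 highest at 32.2 and 21.3 CPM. Core clock genes had 7 of 21 members higher (median -0.02), and 12 of 21 without ACY957 replicate 8 (median 0.01). Among them Arntl, which encodes BMAL1, was at 0.24 (SE 0.16) with that library highest at 23.5 CPM, and at 0.17 without it. Clock output genes had 6 of 14 members higher (median -0.02), and 7 of 14 without replicate 8 (median 0.0014). Of these Dbp, a direct clock target, was at -0.34 (SE 0.29) with the same library lowest at 37.1 CPM, and at -0.26 without it.

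Glucocorticoid-responsive genes, targets of the stress hormone receptor, had 15 of 16 members higher with a median of 0.26. In mutant-labelled mice 16 of 16 were higher. Plin4, a lipid droplet coat gene, was at 0.709 to 1.01 CPM with vehicle and at 1.502, 4.55, 1.68, 1.22, 2.19, 12.1, 1.18 and 1.49 CPM with ACY957, with no overlap. Its log2 fold change was 1.83 (SE 0.79, adjusted p = 0.999 in edgeR). Sgk1, a kinase induced by corticosteroids, was at 48.4, 153, 53.99, 57.7 and 151 CPM with vehicle and at 56.5, 347, 62.9, 52.4, 136, 526, 65.9 and 106 CPM with ACY957. Replicates 6 and 2 were the highest for both genes. The summed level of the list was 599 to 822 CPM with vehicle and 616 to 1574 CPM with ACY957, the highest in replicate 6, and the list median was 0.07 without that library.

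Cholesterol synthesis genes had 5 of 22 members at an unadjusted p under 0.05, all lower (1.68% of all genes tested were both). In all, 20 of 22 lay below 0, their median being -0.17, and 21 of 22 in mutant-labelled mice with a median of -0.12. Tm7sf2, a sterol reductase, was at 21.9 to 27.5 CPM with vehicle and 16.04 to 21.5 CPM with ACY957, with all 8 treated libraries below all vehicles. Its log2 fold change was -0.32 (SE 0.10). Nsdhl, a sterol dehydrogenase, was at -0.22 (SE 0.09), the mevalonate kinase gene Mvk at -0.19 (SE 0.08) and the squalene synthase gene Fdft1 at -0.20 (SE 0.09). The summed level was 2820 to 3152 CPM with vehicle and 2340 to 3022 CPM with ACY957. The list median stayed between -0.20 and -0.12 over the alternative settings and with each of the 13 libraries left out.

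Among glia, microglia markers had 10 of 12 members lower with a median of -0.11, and in mutant-labelled mice 6 of 12. At an unadjusted p under 0.05 there were 4 of the 12, all lower (1.68% of all genes tested were both). Trem2, a lipid-sensing receptor of microglia, was at 12.02 to 17.4 CPM with vehicle and 9.22 to 13.9 CPM with ACY957, a log2 fold change of -0.35 (SE 0.13). Cx3cr1, the fractalkine receptor, was at -0.23 (SE 0.10), with ACY957 replicate 6 lowest at 34.1 CPM, Tmem119 at -0.22 (SE 0.10) and the purine receptor P2ry12 at -0.29 (SE 0.14). Their summed level was 730 to 868 CPM with vehicle and 651 to 891 CPM with ACY957. Mature myelin genes had 11 of 12 members lower (median -0.08) and all 12 in mutant-labelled mice (median -0.25). Astrocyte markers had 8 of 12 members higher (median 0.10), with Gjb6 at 0.29 (SE 0.15) and replicate 6 highest at 187 CPM.

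Ependymal and choroid plexus markers, which would come from the ventricle lining near a midbrain punch, had 10 of 12 members higher with a median of 0.33. Ccdc153, a gene of ciliated cells, was at 0 to 0.186 CPM with vehicle and at 6.12, 0.809, 0.115, 0.382, 2.70, 1.87, 0 and 0.703 CPM with ACY957. Tmem212, of the same cells, was highest in the same replicates, 1 and 5, at 5.09 and 2.62 CPM. Th was low in both of these libraries, and the part of punch position in either was not tested. In mutant-labelled mice 6 of the 12 were higher. Endothelial and mural markers had 10 of 14 members higher (median 0.08), with Pecam1 at 0.14 (SE 0.10), but 3 of 14 in mutant-labelled mice (median -0.08).

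**Figure D4:**
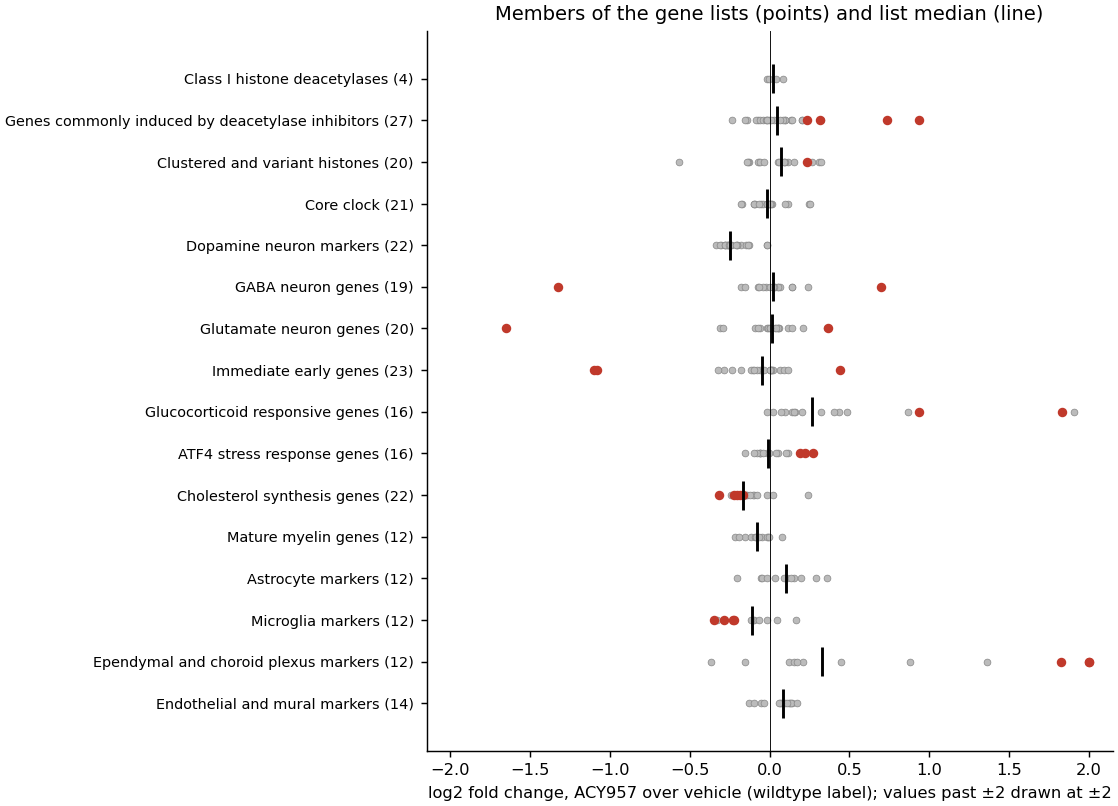
Log2 fold change of ACY957 over vehicle (horizontal, values past ±2 drawn at the edge) for the tested members of 16 gene lists, whose number is in brackets. Grey points are members, red points those at an unadjusted p under 0.05, and black lines list medians. Dopamine neuron markers (median -0.25, but 0.12 with 2 surrogate variables) and cholesterol synthesis genes (-0.17) lie mostly left of 0, and glucocorticoid-responsive genes (0.26) mostly right of it, but no member of any list passed adjustment.

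Groups tied to cell stress and protein folding had medians close to that of all genes tested. Their members ranged from -0.24 to 0.23 for heat shock chaperones and from -0.36 to 0.38 for interferon-induced genes. ATF4 target genes had 7 of 16 members higher (median -0.01), but the 3 at an unadjusted p under 0.05 were all higher (1.64% of all genes tested were both). They were Atf4 itself at 0.27 (SE 0.10) and 0.30 (SE 0.08) in mutant-labelled mice, and the mitochondrial folate enzymes Shmt2 at 0.19 (SE 0.07) and Mthfd2 at 0.22 (SE 0.10). Heat shock chaperones had 10 of 17 members higher (median 0.03), ER chaperones 5 of 16 (median -0.01) and interferon-induced genes 10 of 20 (median 0.00), with Stat2 at -0.32 (SE 0.15). Nuclear-encoded respiratory chain genes were evenly divided, 10 of 20 on each side, all within -0.09 to 0.06.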

How the data were processed

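RNA from VTA punches was sequenced as stranded, poly(A)-selected 75 base reads on a NextSeq 500. The authors deposited raw read counts per gene symbol (24421 symbols), made with HTSeq, and applied no normalization. Per the labels' protocols and design text the tools were FastQC 0.11.3, TopHat2 2.0.9 and HTSeq 0.6.1 on mm10, with human GRCh38.p13 named as a further target, while the submitters' processing notes name Trimmomatic and HISAT2. Overlapping or near-identical genes may share reads. The test was the quasi-likelihood F test of edgeR 4.0.16 under R 4.3.3, after TMM scaling and filterByExpr. A single model held the means of the 8 groups (64 libraries), so all groups share 1 estimate of the spread. P-values were adjusted by Benjamini-Hochberg over 15634 genes (threshold 0.05). Each library is 1 mouse, numbered in accession order. Dividing a log2 fold change by the root of its F statistic gave the SE. log2 CPM used a prior count of 2. Positions come from GENCODE M21, which held 23376 of the symbols.

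Genes named are Clock and Hdac1 to Hdac3, the 12 with the smallest p in each direction, up to 4 per list, and 3 per difference test, without predicted genes. Some genes picked this way are not reported here. Others were chosen after their values were seen. The members and lists were chosen with earlier results of these data known. Alternatives used DESeq2 1.42.0, limma 3.58.1 voom, sva 3.50.0, other scalings and filters, other sets of libraries, and each library left out. The procedure was also run on simulated data, with the outcome not reported here. No outlying library was built into those data, so that run does not cover libraries such as vehicle replicate 2.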

Additional observations from a re-analysis of the deposited data

Results flagged for a closer look

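Within each group, the levels of genes picked by the naming rule or the text, the total count and the clock output score were checked for a library far from the others, by the gap to its nearest neighbour over the range of the group (Dixon's test at 95%). Of 190 such groups of values, 39 (20.5%) held an outlying library. This share cannot be compared with a chance rate, because many of the genes were picked through values that were extreme in a single library. The checks are not independent either, because genes were named from these libraries.

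Vehicle replicate 2 was the highest vehicle in 17 of them. The levels were 4.36 CPM for Dtl, 14.7 CPM for Dusp1, 2.69 CPM for Dynlt1b, 17.8 CPM for Egr3, 3.02 CPM for Egr4, 14.7 CPM for Gabrd, 41.7 CPM for Kcnv1, 5.11 CPM for Krt12 and 2.83 CPM for Krt2. They were 151 CPM for Mef2c, 73.2 CPM for Nov, 242 CPM for Slc17a7, 7.68 CPM for Slc6a4, 13.2 CPM for Tph2, 14.1 CPM for Trh, 28.5 CPM for Tuba1c and 35.2 CPM for Vip. It was the lowest for Plin4 at 0.709 CPM. Other vehicles stood highest for Atf4 (replicate 4, 130.2 CPM), Cdk1 (replicate 5, 0.796 CPM) and Pmch, a hypothalamic peptide gene (replicate 1, 9.15 CPM).

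ACY957 replicate 6 was the highest treated library in 10 of them, at 54.4 CPM for Cdkn1a, 32.2 CPM for Dusp1, 187 CPM for Gjb6, 0.556 CPM for Krt12, 5.80 CPM for Maff, 31.3 CPM for Pdrg1, 12.1 CPM for Plin4, 21.04 CPM for Pmch, 26.3 CPM for Shmt2 and 3.53 CPM for Trh. It was the lowest for Cx3cr1 at 34.1 CPM. Replicate 8 stood apart in clock output, highest for Arntl at 23.5 CPM and lowest in the clock output score at 4.28. Replicate 2 was highest for Nmu at 16.1 CPM, replicate 3 for Slc6a4 at 0.535 CPM, replicate 5 for Dnah11 (0.656 CPM) and Skor1 (0.182 CPM), and replicate 1 for Ccdc153 (6.12 CPM).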

How the results depend on the processing

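With wildtype labels, 1 gene passed under every alternative except limma voom and the 13 libraries alone (0 each). Nmu was then at 2.98 and 3.42, with adjusted p of 0.91 and 0.479. Leaving out any of the 13 libraries kept 1 gene, with Nmu at 2.99 to 3.58 and adjusted p from 0.000167 to 0.0171. With mutant labels 6 genes passed with DESeq2, 3 with voom, 2 each with Th as a covariate, 2 surrogate variables, or without vehicle replicate 2 and ACY957 replicate 6 together, and 0 without the 16 later vehicle libraries (Nmu 1.97). Both difference tests gave 0 under every alternative run for them. Pooling both wildtype-labelled vehicle groups, which puts the VPA vehicle among the controls, raised the genes at an unadjusted p under 0.05 from 519 to 1062 and moved the medians of the heat shock (0.03 to -0.06), ATF4 (-0.01 to 0.05) and ER chaperone lists (-0.01 to -0.11).

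Of the named log2 fold changes, signs turned with those 2 libraries left out together, a choice made after seeing the data, for Clock (0.0044), Hdac2 (0.029), Dtl (0.19), Mef2c (0.041), Slc6a4 (1.14), Gabrd (0.36), Slc17a7 (0.73), Tph2 (0.11), Bdnf (-0.0044), Egr3 (0.036), Egr4 (0.034) and Tuba1c (0.061). With pooled vehicles they turned for Hdac3 (0.017) and Hdac8 (-0.0017), and with 2 surrogate variables for Th (0.20) and Sncg (0.069), where the dopamine list median was 0.12. Leaving out single libraries spanned -0.050 to 0.019 for Clock, -0.034 to 0.027 for Hdac2, -0.046 to 0.0014 for Hdac3, -2.69 to 0.080 for Dtl, -1.43 to 0.028 for Mef2c, -2.23 to 0.067 for Nov, -3.40 to 0.20 for Krt12, -5.03 to 1.03 for Slc6a4, -1.98 to 0.38 for Trh, -1.59 to 0.41 for Gabrd, -1.96 to 0.86 for Slc17a7, -1.47 to 0.14 for Tph2, -1.34 to 0.12 for Egr3, -1.35 to 0.071 for Egr4 and -0.69 to 0.028 for Tuba1c. The causes were not tested. No paired analysis was made, because each library is 1 mouse and the labels link no treated mouse to a vehicle mouse. Levels under about 1 CPM rest on few reads (Nmu vehicles 11 to 17), which limits their precision.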
